A study of Homo sapiens with 4 samples.

Results

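The ETS and RUNX factor genes described here are 10 transcription factor genes, 7 of the ETS family (ETS1, ETS2, ERG, FLI1, ETV1, ETV4 and ETV5) and 3 of the RUNX family (RUNX1, RUNX2 and RUNX3), of 19974 protein-coding genes in the annotation. Their open chromatin was taken as every ATAC-seq peak that overlapped the gene span plus 100 kb on each side, on GRCh38. After peaks of the 4 libraries were merged into regions, these windows held 245 of 138467 regions. The libraries came from 786-O cells, an established line from a human clear cell carcinoma of the kidney that lacks working VHL. Both DEK KO libraries came from cells in which the gene for DEK, a chromatin protein and histone chaperone, was targeted with guide RNAs, and both WT control libraries came from Cas9-expressing cells labelled as negative control with wild-type genotype. Every cell therefore carried a Cas9 virus (LentiCas9-Blast), and the Cas9 line was itself a clone. The DEK KO cells were also infected with LentiGuide-Puro virus and sorted as single cells. All were grown in medium with serum, and no other treatment is given. Whether the pair of libraries of a genotype came from different clones or cultures is not stated in the labels. Their library text describes RNA and an mRNA kit although the molecule is genomic DNA, so the way the ATAC libraries were prepared is not known from the labels.

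ETS factors bind DNA at a GGAA core and many of them are switched on by phosphorylation downstream of RAS and ERK. RUNX factors bind TGTGGT-like sites as a complex with CBFB, and ETS and RUNX proteins often bind side by side at the same enhancers. ERG and FLI1 are best known from endothelial and blood cells, RUNX1 from blood formation, RUNX2 from bone, and ETV4 and ETV5 from growth factor driven branching of the developing mouse kidney.

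There were 102760 and 99508 peaks in the DEK KO lists, against 89563 and 90409 in the WT control lists. Since the lists differ in length, a peak's strength is given as its percentile of −log10 p within its own list, in which 0 is the weakest and 100 the strongest. The fold of a peak is the authors' value and belongs to its own list too. Sequencing depth is unknown, because the lists hold no read counts. Among marker genes checked for the labelled cell type, 7 of 9 renal carcinoma and renal epithelial genes had a region called in all 4 lists within 1 kb of a gene end. The others, PAX2 and CA9, had no peak there in any list. Of 10 endothelial markers 3 had such a region (KDR, ESAM and ROBO4), and of 10 blood cell markers 1 had (ITGAM). The defining genes CDH5, PECAM1, PTPRC and CD3E had no peak at either end in any library.

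The sequences at the listed starts of these genes show what lies under the start peaks described next. RefSeq promoter entries, 250 bases before to 50 bases after a start on GRCh38.p14, existed for 6 of the 10 genes: ETS2, ERG, ETV1, RUNX1, RUNX2 and RUNX3. Of their 17 entries, 10 overlapped a region called in all 4 lists, 1 a region of 3 lists and 6 no region, and over all 34961 entries 42.4% overlapped a region called in all 4 lists. Where a gene has several starts, the outer start is the one farthest from the far end of the gene. Capitals mark matches to an ETS motif (CCGGAA), a RUNX motif (TGTGGT or TGCGGT) or an AP-1 motif (TGANTCA) on either strand.
ETV1 outer start, chr7:13991376-13991675, minus strand: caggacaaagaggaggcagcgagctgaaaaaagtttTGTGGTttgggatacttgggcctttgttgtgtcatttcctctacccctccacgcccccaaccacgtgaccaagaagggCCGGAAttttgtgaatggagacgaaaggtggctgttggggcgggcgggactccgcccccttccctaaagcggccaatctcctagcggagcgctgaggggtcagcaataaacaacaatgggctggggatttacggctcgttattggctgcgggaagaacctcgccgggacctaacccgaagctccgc
ETS2 outer start, chr21:38804933-38805232, plus strand: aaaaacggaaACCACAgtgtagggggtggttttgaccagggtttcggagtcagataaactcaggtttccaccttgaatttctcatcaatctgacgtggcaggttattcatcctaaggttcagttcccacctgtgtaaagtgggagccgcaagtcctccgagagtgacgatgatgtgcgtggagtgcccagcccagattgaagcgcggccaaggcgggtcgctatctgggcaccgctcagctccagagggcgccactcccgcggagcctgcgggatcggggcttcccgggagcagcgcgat
RUNX1 inner start, chr21:34888650-34888949, minus strand: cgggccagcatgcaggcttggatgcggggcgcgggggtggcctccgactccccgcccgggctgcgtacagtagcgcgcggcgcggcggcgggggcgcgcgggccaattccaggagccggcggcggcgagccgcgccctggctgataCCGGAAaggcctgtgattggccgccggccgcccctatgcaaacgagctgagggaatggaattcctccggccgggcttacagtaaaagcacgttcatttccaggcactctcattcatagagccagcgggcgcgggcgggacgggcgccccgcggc
RUNX2 outer start, chr6:45328080-45328379, plus strand: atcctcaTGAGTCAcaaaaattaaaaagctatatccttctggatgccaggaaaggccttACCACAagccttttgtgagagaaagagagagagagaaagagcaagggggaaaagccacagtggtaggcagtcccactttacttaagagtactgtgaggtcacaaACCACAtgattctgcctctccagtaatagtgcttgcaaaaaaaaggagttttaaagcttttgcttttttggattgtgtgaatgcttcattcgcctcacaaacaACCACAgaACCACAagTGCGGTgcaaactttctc
RUNX2 inner start, chr6:45422025-45422324, plus strand: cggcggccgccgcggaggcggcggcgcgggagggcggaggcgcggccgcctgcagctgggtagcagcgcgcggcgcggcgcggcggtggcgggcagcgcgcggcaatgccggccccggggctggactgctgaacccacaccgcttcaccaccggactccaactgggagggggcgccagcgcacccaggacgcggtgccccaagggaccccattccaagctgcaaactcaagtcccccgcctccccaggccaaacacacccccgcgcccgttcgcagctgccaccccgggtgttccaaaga
RUNX3 outer start, chr1:24964961-24965260, minus strand: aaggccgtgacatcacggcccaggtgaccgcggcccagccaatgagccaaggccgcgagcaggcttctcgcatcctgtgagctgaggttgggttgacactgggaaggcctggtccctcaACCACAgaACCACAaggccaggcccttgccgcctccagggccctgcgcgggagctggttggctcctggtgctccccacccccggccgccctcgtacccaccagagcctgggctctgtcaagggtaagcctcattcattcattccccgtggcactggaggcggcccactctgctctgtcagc
ERG outermost listed start, chr21:38660618-38660917, minus strand: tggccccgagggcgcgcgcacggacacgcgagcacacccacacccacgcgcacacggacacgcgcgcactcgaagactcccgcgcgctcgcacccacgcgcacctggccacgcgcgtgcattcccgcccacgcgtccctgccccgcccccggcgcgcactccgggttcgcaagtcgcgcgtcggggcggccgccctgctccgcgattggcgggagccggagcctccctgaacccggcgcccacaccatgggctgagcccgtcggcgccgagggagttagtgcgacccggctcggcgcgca

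The RUNX2 outer start held 5 RUNX matches and 1 AP-1 match, no match overlapping another. At least 1 RUNX match occurred in 19.6% of all promoter entries, and 5 or more in 4 of 34961 (0.0114%). The cut of 5 is the count of this RUNX2 entry, so that share is no test of its rarity. The RUNX3 outer start held 2 RUNX matches, 8 bases apart from first base to first base, the ETS2 outer start held 1, and the ETV1 outer start held 1 beside 1 ETS match. RUNX1's inner start held 1 ETS match, a motif found in 17.3% of entries. The AP-1 motif stood in 7.68% of entries. No match to these motifs stood in the windows shown for the RUNX2 inner start and for ERG. A match is a string of letters, and no factor's binding was measured.

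The genes were chosen by earlier readings of peak presence, width and rank in these same lists, so these values are given as a description with no test, and 2 libraries against 2 cannot go below an exact permutation p of 0.333. At gene ends, 7 of the 10 genes had a region called in all 4 lists within 1 kb, against 60.0% of all protein-coding genes. The exceptions were ETS1, ERG and FLI1. RUNX3 counted only through a region 912 bp outside its end of lower coordinate, not at a listed start. It stood at percentiles 34.5 and 22.7 in DEK KO and 27.8 and 42.8 in WT control. ERG and FLI1 had no peak within 1 kb of either end in any library, and none of ERG's 4 listed starts overlapped a region. ETS1, a factor of lymphoid and endothelial cells that is activated through ERK, had no region at its end of higher coordinate (chr11:128458765-128587558 is its span). At its end of lower coordinate, ETS1 had a region called only in DEK KO (chr11:128458325-128458657, 108 bp from the end). That region stood at percentiles 62.1 and 60.1 in DEK KO replicates 1 and 2, with folds of 4.15 and 4.59, and had no peak in either WT control list. Over all protein-coding genes, 1.83% had such a DEK KO-only region at an end. None of the 10 genes had a WT control-only region there, against 1.13% of all genes.

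The PEA3 group, ETV1, ETV4 and ETV5, are ETS factors transcribed in response to FGF and ERK signals. ETV1 had a broad region over 5 of its 6 listed starts (chr7:13989251-13991810). It was 2549 and 2537 bp wide in DEK KO, against 2521 and 2426 bp in WT control. Its percentiles were 92.2 and 94.4 in DEK KO and 95.9 and 97.9 in WT control, high everywhere and slightly lower in both DEK KO libraries. By fold the order was the other way, with 7.18 and 7.48 in DEK KO and 6.82 and 7.08 in WT control. The summits lay within 50 bp of the outer start in all 4 libraries, at 50 and −14 bp in DEK KO and −9 and 6 bp in WT control. ETV5's region at its end of higher coordinate (chr3:186108362-186109758) stood at percentiles 98.1 and 95.9 in DEK KO and 91.5 and 97.2 in WT control. These libraries overlap. The region was the highest-ranked one of the gene, meaning here the shared region whose lowest percentile among the 4 lists is highest. ETV4's region at its end of higher coordinate (chr17:43545787-43546941) stood at percentiles 74.3 and 86.3 in DEK KO, against 59.2 and 63.7 in WT control, so the genotypes did not overlap. Its widths were 1120 and 1065 bp in DEK KO and 982 and 858 bp in WT control, and its folds 7.44 and 9.76 against 7.11 and 6.82.

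At the RUNX genes the starts differed in strength within a gene. The RUNX2 outer start, whose RUNX-rich sequence is shown above, lay under a region (chr6:45327751-45328759) at percentiles 74.7 and 69.8 in DEK KO and 75.7 and 68.6 in WT control, with folds of 9.55 and 10.3 against 9.87 and 9.11. Its inner start lay under a weaker region (chr6:45421534-45422416) at percentiles 23.7 and 23.8 in DEK KO and 28.6 and 23.4 in WT control, with folds of 3.03 and 3.04 against 3.33 and 2.78. In WT control replicate 2 the peak of the weaker region ended before the promoter entry shown, with its summit at −425 bp from the start. That library thus had no peak over the inner start itself. Both regions overlapped between genotypes, and in each library the outer one ranked higher. RUNX1's inner start (region chr21:34887612-34888876) stood at percentiles 75.4 and 74.2 in DEK KO and 68.3 and 74.6 in WT control. The region at RUNX1's end of higher coordinate (chr21:35047043-35049550) was wider, at 2335 and 2465 bp in DEK KO and 2387 and 2452 bp in WT control. Its percentiles of 75.0 and 87.8 in DEK KO and 71.8 and 80.0 in WT control overlapped as well.

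RUNX3, a factor of T cells, sensory neurons and gut epithelium, was the RUNX gene without a region of all 4 lists at a listed start. Its outer start (region chr1:24964778-24965220) had a peak at percentile 19.6 in DEK KO replicate 1 and none in DEK KO replicate 2, against 0.133 and 44.9 in WT control. Its inner start had no peak in any library. ETS2, an ERK-activated relative of ETS1, had 1 region over both listed starts (chr21:38804701-38805964) at percentiles 73.5 and 70.7 in DEK KO and 73.4 and 74.8 in WT control, with folds of 4.01 and 4.38 against 4.42 and 4.35. The ETS2 libraries overlapped in rank and in fold.

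**Figure D1:**
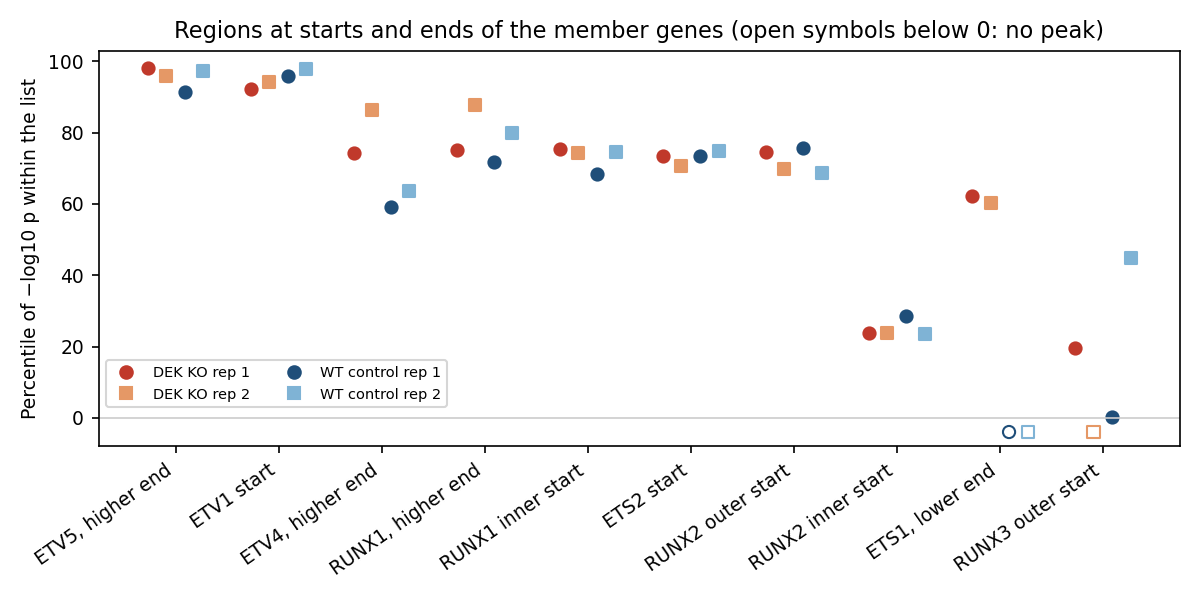
Percentile of −log10 p within the list (vertical axis) of the region at starts and gene ends, 1 point for each library, with open symbols below 0 for a library without a peak. ETV4 has both DEK KO points above both WT control points, and the ETS1 end of lower coordinate has points in DEK KO only. The region at the RUNX2 inner start lies near 25 in all libraries, while that at its outer start lies near 70. In WT control replicate 2 the inner point is a peak beside the start, not over it.

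Of the 245 regions, 16 were DEK KO-only, with a peak in each DEK KO list and in no WT control list (6.53%), against 6.26% of all regions. Another 6 were WT control-only, the reverse (2.45%), against 2.57% of all regions. A further 112 (45.7%) were called in all 4 lists, against 45.3%. These shares lie near the background. Leaving out a library, so that 1 list of that genotype decides, gave 34 DEK KO-only regions (15.3%, against 17.2% of all) without DEK KO replicate 1, 40 (17.5% against 17.3%) without DEK KO replicate 2, 28 (11.8% against 9.86%) without WT control replicate 1 and 29 (12.6% against 9.61%) without WT control replicate 2. The same 4 settings gave 11, 10, 20 and 14 WT control-only regions, or 4.96%, 4.39%, 8.40% and 6.06%, against 6.68%, 4.73%, 9.06% and 7.96% of all. The genes' windows were covered by peaks over 126 and 118 kb in DEK KO and 110 and 115 kb in WT control, or 122 ± 6.07 kb in DEK KO and 113 ± 3.18 kb in WT control (SD, n = 2 each). The ratio of 1.08 stood beside 1.05 over all regions. Mean peak width in the windows was 669 and 644 bp in DEK KO and 736 and 696 bp in WT control, beside 681 and 638 bp in DEK KO and 693 and 716 bp in WT control over all peaks.

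**Figure D2:**
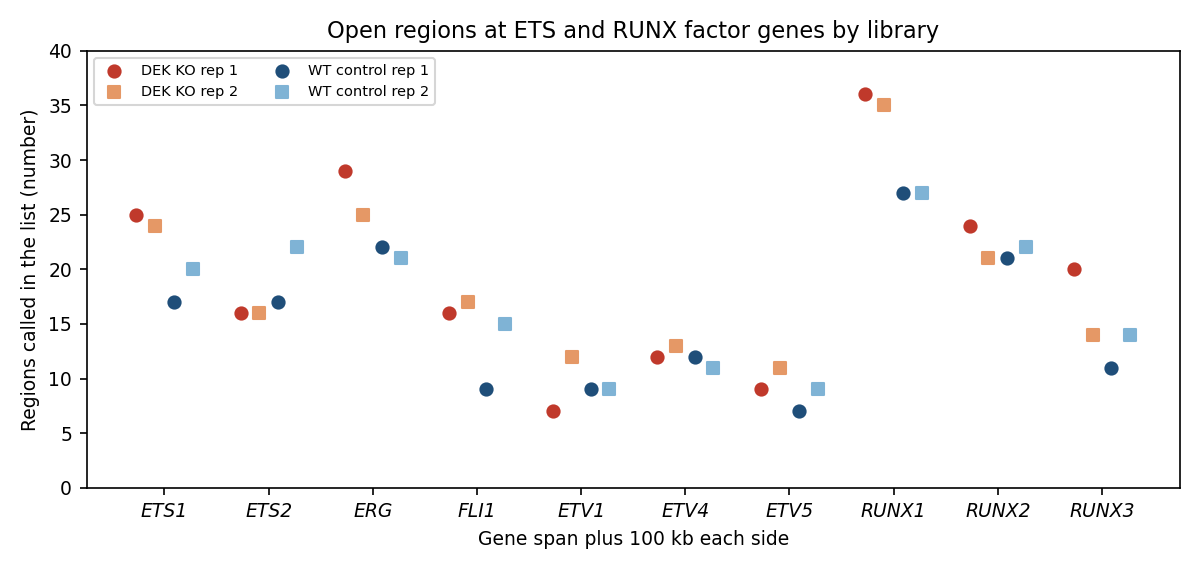
Number of regions called in each library (vertical axis) in the window of each gene, 1 point for each library. RUNX1, ETS1, ERG and FLI1 have both DEK KO points above both WT control points, and ETS2 has both DEK KO points below. Over all regions, too, the DEK KO lists call more than the WT control lists.

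RUNX1 held most regions, 42, followed by ERG with 35, ETS1 with 32, RUNX2 with 31, ETS2 with 25, FLI1 and RUNX3 with 23 each, ETV4 with 16, ETV1 with 15 and ETV5 with 12. Per 100 kb of window the range was narrower, with 11.4 at ETS2, 9.73 at ETS1 and 4.57 at ETV5. Over all regions the lists called 101649 and 97901 in DEK KO and 88137 and 89353 in WT control, so higher counts in DEK KO are the direction of the whole lists. By library, RUNX1 had 36 and 35 regions in DEK KO and 27 and 27 in WT control, ETS1 had 25 and 24 against 17 and 20, and ERG had 29 and 25 against 22 and 21. FLI1 had 16 and 17 in DEK KO and 9 and 15 in WT control. ETS2 went the other way, with 16 and 16 in DEK KO and 17 and 22 in WT control. At the other 5 genes the libraries of the genotypes overlapped or touched. The share of all gene windows whose counts separate by genotype was not counted. ETS1 and FLI1, neighbours on chromosome 11, shared 6 regions, and ERG and ETS2 on chromosome 21 shared 3.

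DEK KO-only regions lay at 6 of the 10 genes, against 57.5% of all genes with such a window, and WT control-only regions lay at 5 of 10, against 29.4%. Long genes have larger windows, so these shares are not per length. RUNX1 held 5 DEK KO-only regions and no WT control-only region, and ETS1 4 and none. ERG held 3 and 1, FLI1 3 and 1, ETV4 and RUNX3 1 and 1 each, and ETS2 none and 2. RUNX2, ETV1 and ETV5 held neither kind. Of the 16 DEK KO-only regions 7 lay inside one of the 10 genes, and of the 6 WT control-only regions none did. Of all 245 regions in the windows, 115 lay inside one of the genes, so the DEK KO-only regions were near that share.

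The strongest regions of one genotype stood in the middle or the lower part of their lists. The median of the lower of the 2 percentiles was 30.8 for the 16 DEK KO-only regions, and 21.6 for all such regions. In ERG's span a DEK KO-only region (chr21:38486302-38486916) stood at percentiles 51.8 and 72.5, with folds of 6.54 and 12.0. RUNX1's highest-ranked one (chr21:34845825-34846149) stood at 39.6 and 55.0, and RUNX3's (chr1:25017399-25017733), 52.3 kb outside the gene, at 32.1 and 48.7. FLI1's highest-ranked one (chr11:128593335-128593755) stood at 45.2 and 29.9 and is 5.78 kb from the end of ETS1, in both windows. At ETV4, a DEK KO-only region 84.7 kb away (chr17:43442684-43443103) stood at 21.6 and 42.2.

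Among WT control-only regions the highest-ranked was at ETV4, 6.70 kb outside its end of lower coordinate (chr17:43520483-43521147). It stood at percentiles 45.3 and 64.4 with folds of 7.28 and 9.44 in the WT control lists, and had no peak in DEK KO. ETV4 thus had a region missing in DEK KO on one side of the gene and a higher-ranked region in DEK KO at its other end. RUNX3's WT control-only region (chr1:25063749-25064403) stood at 34.3 and 46.7, FLI1's (chr11:128859757-128860279) at 25.2 and 36.9, ERG's (chr21:38314874-38315554) at 15.1 and 28.6, and ETS2's (chr21:38775457-38776004) at 35.5 and 12.7. The window's edge decides some of these, since RUNX3's region lay 0.735 kb inside it. At ETS2 a weak WT control-only region lay 2.80 kb inside (percentiles 4.49 and 4.15) and a region called in all lists 0.694 kb outside (80.3 and 78.5 in DEK KO, 70.0 and 63.0 in WT control). A DEK KO-only region with percentiles 48.3 and 54.5 lay 4.22 kb outside the window of ETV1.

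**Figure D3:**
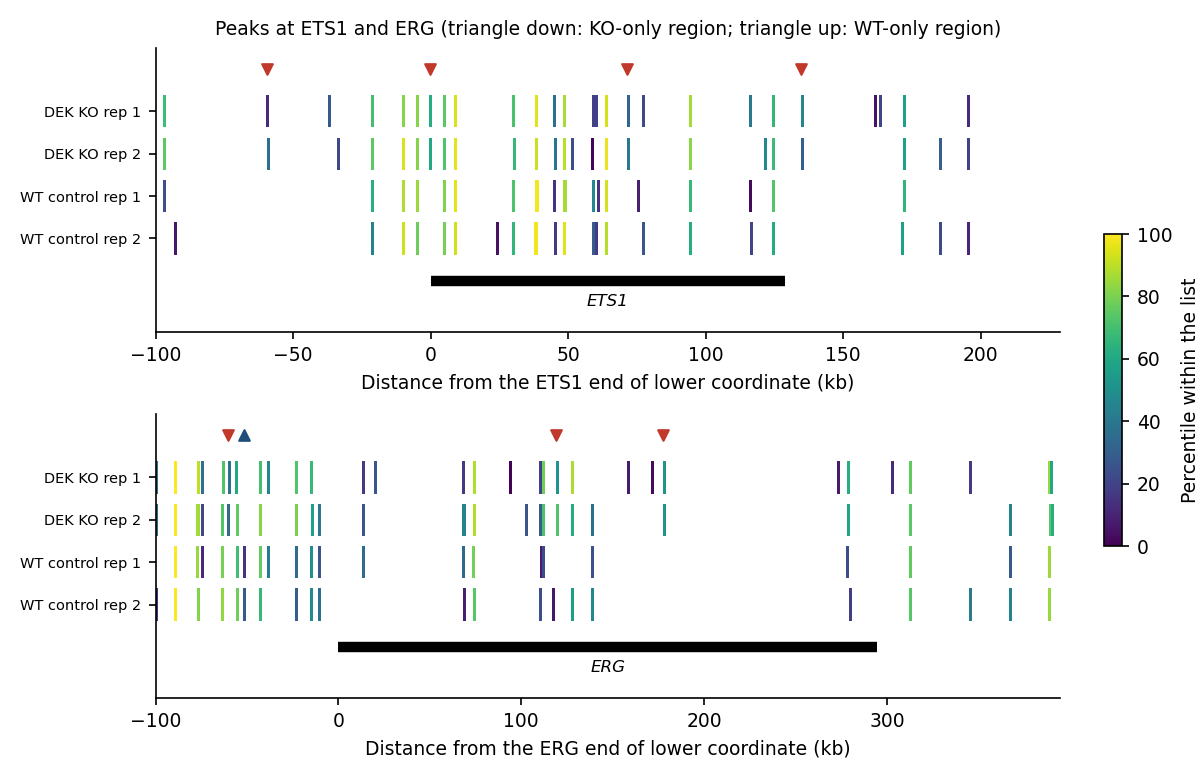
Peaks of each library along ETS1 and ERG (horizontal axis: kb from the end of lower coordinate), coloured by percentile within the list, with narrow peaks drawn at a minimum width and the gene as a black bar. Triangles mark DEK KO-only regions (down) and WT control-only regions (up). ETS1 has 4 DEK KO-only regions, 1 of them at its end of lower coordinate, and both ends of ERG lack a peak.

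Regions called in all 4 lists were compared by percentile, DEK KO mean minus WT control mean. The median difference over the 112 regions was 3.36 percentile points (quartiles −3.11 and 12.0), against 1.33 over all 62686 such regions. In 40 of the 112 (35.7%) both DEK KO libraries stood above both WT controls, against 31.1% of all such regions, and in 20 (17.9%) both stood below, against 19.2%. The other 52 overlapped. The median was 1.26 without DEK KO replicate 2, beside 1.71 over all regions, and 0.656 when peaks were ranked by fold, beside 0.810. It was 0.310 when every list was cut to the length of the shortest, beside −1.06, and 2.13 for peaks with −log10 q of at least 5, beside 0.519. Inside the 10 gene spans, 15 of 55 regions stood above and 14 below, with a median of 0.666, and in the flanks 25 of 57 stood above and 6 below, with a median of 4.27.

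**Figure D4:**
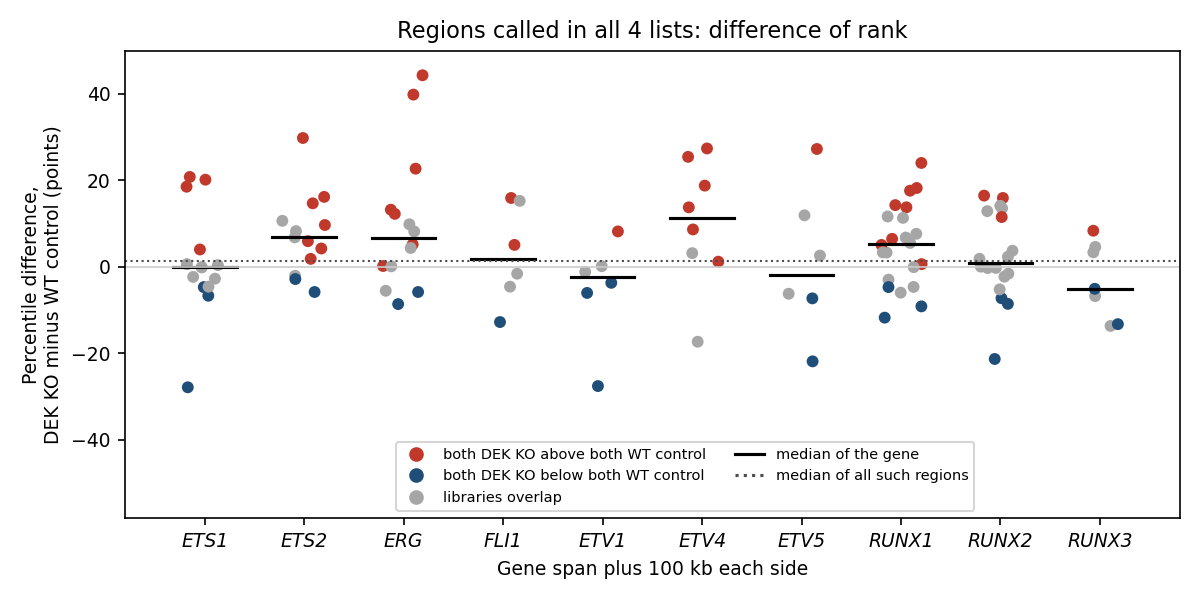
Percentile difference, DEK KO mean minus WT control mean in points (vertical axis), of each region called in all 4 lists, by gene. Red points have both DEK KO libraries above both WT controls, blue points both below, and grey points overlap, with the gene's median as a black line and the median of all such regions dotted. The highest points are 2 regions of ERG at 44.3 and 39.9, and ETV4 has the highest median, 11.2.

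ERG had the largest differences. A region 22.9 kb outside its end of lower coordinate (chr21:38343381-38344404) stood at percentiles 72.6 and 79.8 in DEK KO, against 34.3 and 29.5 in WT control, with folds of 9.64 and 11.7 against 6.02 and 5.02. Its widths were 948 and 828 bp in DEK KO and 614 and 499 bp in WT control. A second region, in the gene span 14.9 kb from the end of higher coordinate (chr21:38645123-38646897), stood at 62.0 and 59.3 in DEK KO and 23.1 and 18.4 in WT control. It was 1644 and 1660 bp wide in DEK KO, and 524 and 304 bp in WT control, with folds of 7.02 and 7.71 against 4.95 and 4.13. In both merged regions the genotypes were well apart in rank, fold and width. In the second, however, the WT control peaks did not overlap each other. They lay at 277.862 to 278.385 kb in replicate 1 and 279.068 to 279.371 kb in replicate 2 from the end of lower coordinate. DEK KO peaks spanning both sites joined them, so each WT control list lacked a peak at the other's site. The other shared regions of ERG lay between −8.58 and 22.7 points, and its highest-ranked one (chr21:38277317-38278363), 88.9 kb away, was at 99.8 and 99.9 in DEK KO and 99.7 and 99.5 in WT control.

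ETV4 had 8 shared regions, of which 6 had both DEK KO libraries above both WT controls, 2 overlapped and none was below. A region 23.9 kb outside its end of higher coordinate (chr17:43570190-43570949) stood at 95.0 and 93.6 in DEK KO, against 70.3 and 63.5 in WT control, with folds of 13.0 and 13.0 against 9.99 and 8.11. The rest of chromosome 17 stood above in 36.8% and below in 12.1% of shared regions, with a median difference of 3.13, so ETV4 lies on a chromosome with higher ranks in DEK KO. The 3 genes on chromosome 21 (ETS2, ERG and RUNX1) had 48 shared regions, with 22 above (45.8%), 6 below (12.5%) and a median difference of 6.24. On the rest of chromosome 21 38.3% stood above and 16.3% below, with a median of 2.64. ETS2's largest difference was a weak region 85.4 kb away (chr21:38910366-38911106), at 35.6 and 49.2 in DEK KO and 9.35 and 15.8 in WT control. At ETS2 7 shared regions stood above and 2 below, and at RUNX1 8 stood above, 3 below and 11 overlapped.

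Among regions whose genotypes did not overlap, the 5 with the largest lower ranks in DEK KO lay at ETS1, ETV1, ETV5, RUNX2 and RUNX3. ETS1 had 4 shared regions above and 3 below, RUNX2 3 and 3, ETV1 1 and 3, and ETV5 and RUNX3 1 and 2 each. An ETS1 region inside the gene (chr11:128517263-128519566) stood at 19.0 and 0.954 in DEK KO, against 47.3 and 28.3 in WT control, with folds of 2.08 and 1.96 against 3.11 and 2.29. It held 2 peaks in each WT control list and 1 in each DEK KO list. The DEK KO peaks did not overlap each other, at 58.835 to 60.747 kb in replicate 1 and 58.498 to 58.805 kb in replicate 2 from the end of lower coordinate. Their percentiles thus belong to different parts of the merged region. The region's difference was −27.8 points, and −2.69 when peaks were ranked by fold. Elsewhere in ETS1, the highest-ranked shared region (chr11:128467302-128468356) stood at 94.3 and 95.8 in DEK KO and 96.0 and 92.8 in WT control, which overlap. A second strong one (chr11:128496524-128498016) stood at 95.3 and 91.8 in DEK KO, against 98.7 and 97.7 in WT control, and did not overlap. ETV1's largest difference lay inside the gene (chr7:13903813-13905167), at 54.4 and 30.8 in DEK KO and 71.5 and 68.7 in WT control, with folds of 6.41 and 4.96 against 7.89 and 7.15. Its highest-ranked region (chr7:13919894-13920743), also inside the gene, stood at 98.1 and 99.3 in DEK KO and 99.0 and 98.0 in WT control, which overlap.

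RUNX2's largest difference was a region shortly before its inner start (chr6:45419540-45420861), at 23.6 and 42.9 in DEK KO, against 58.1 and 50.9 in WT control, with folds of 3.01 and 3.99 against 5.12 and 4.13. Its highest-ranked region (chr6:45376987-45378707), which also covers an end of SUPT3H, a gene that overlaps the RUNX2 locus, stood at 80.8 and 87.5 in DEK KO and 80.8 and 90.6 in WT control. Other strong RUNX2 regions inside the gene stood lower in both DEK KO libraries, at 88.0 and 78.5 against 93.1 and 90.5 (chr6:45438122-45439420) and at 79.7 and 84.5 against 90.4 and 88.3 (chr6:45445274-45446468). RUNX3's highest-ranked region (chr1:24946666-24947782) also stood lower in both DEK KO libraries, at 76.7 and 71.2 in DEK KO and 83.9 and 90.4 in WT control, with folds of 6.34 and 6.26 against 7.14 and 7.54. Another RUNX3 region (chr1:24847885-24848688) differed by −13.6 points against −13.2 here, but its libraries overlapped, at 33.6 and 49.7 in DEK KO and 65.9 and 44.7 in WT control. At ETV5 a region 62.1 kb away (chr3:185983275-185984254) stood lower, at 42.9 and 34.8 in DEK KO and 61.8 and 59.5 in WT control, and a region on its other side, 3.75 kb from DGKG (chr3:186150955-186151861), stood higher, at 69.1 and 65.3 against 31.1 and 48.7.

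ETV1 lies in the first 60 Mb of chromosome 7, where 17.3% of shared regions outside its window stood above and 40.4% below, with a median difference of −3.61, and ETV1's own median was −2.39. ETV1's median was −1.04 without DEK KO replicate 1, −4.60 without DEK KO replicate 2 and −0.621 when ranked by fold. RUNX3 lies on chromosome 1, where the median was −1.06 and 28.1% stood below, and RUNX3's own median was −5.04 over 7 regions. RUNX3's median rested on single libraries, at −2.39 without DEK KO replicate 2, −0.926 without WT control replicate 1 and 0.770 without WT control replicate 2, where its sign turned. FLI1 had no region called in all 4 lists inside its span. Its highest-ranked shared region (chr11:128865289-128866143) lay 1.15 kb from KCNJ1, a potassium channel gene, at 63.3 and 59.3 in DEK KO and 75.7 and 72.3 in WT control. ERG's window likewise reaches KCNJ15, whose end lies 237 bp from a DEK KO-only region.

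**Figure D5:**
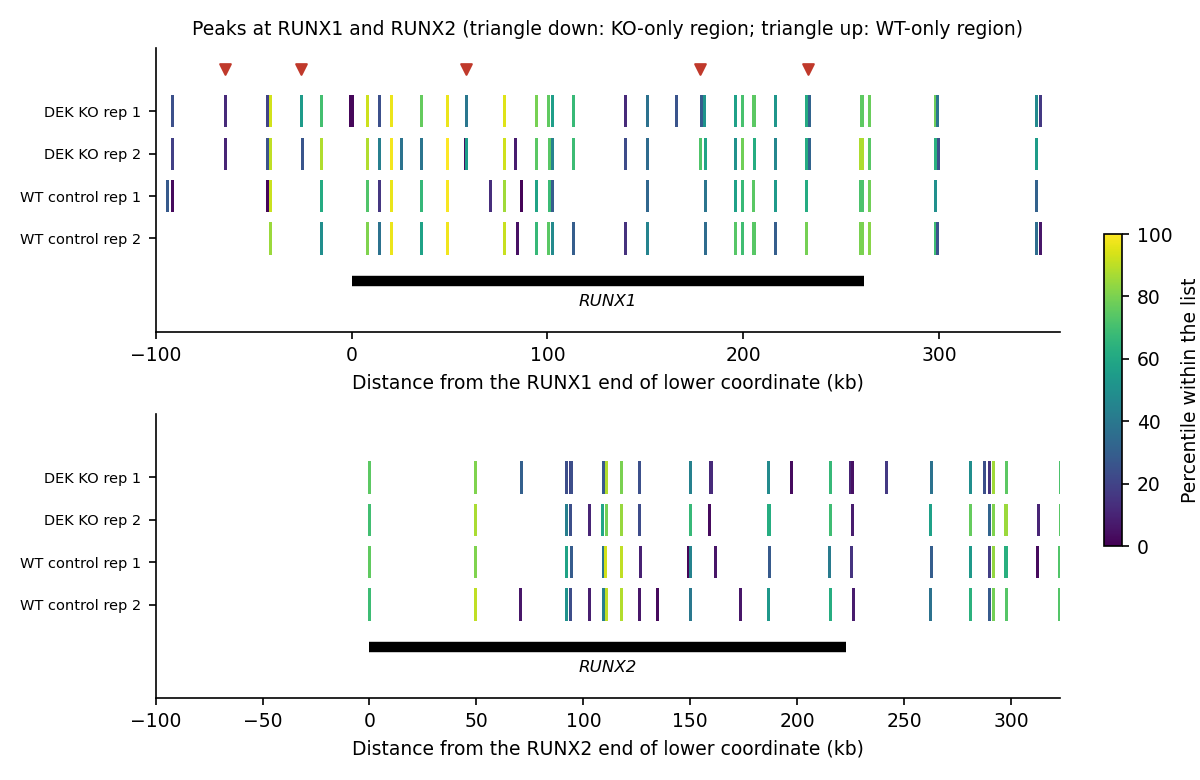
Peaks of each library along RUNX1 and RUNX2 (horizontal axis: kb from the end of lower coordinate), coloured by percentile within the list, with narrow peaks drawn at a minimum width and the gene as a black bar. RUNX1 has 5 DEK KO-only regions (triangles) and RUNX2 has none. In the 100 kb before the RUNX2 outer start, no library has a peak other than the one that reaches over that start.

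RUNX1's highest-ranked region (chr21:34836002-34837098), inside the gene and 48.2 kb from its end of lower coordinate, stood at 96.9 and 99.7 in DEK KO and 99.0 and 97.7 in WT control, with folds of 8.98 and 12.3 against 12.4 and 11.5. These overlap, as did the corresponding region of ETV5. ETS2's highest-ranked region (chr21:38787581-38788445), 16.7 kb from the gene, stood at 98.3 and 97.9 in DEK KO and 95.3 and 97.2 in WT control. ETV4's (chr17:43468275-43469761), 58.1 kb away, stood at 99.4 and 99.3 in DEK KO and 98.5 and 97.7 in WT control. Every one of the 10 genes thus had a region called in all libraries in its window, and at 8 of them the highest-ranked one stood above percentile 80 in all 4 lists. The shares of all gene windows with such regions were not counted, so these counts do not set the 10 genes apart. Summits of shared regions with 1 peak in each list lay a median of 37 bp apart between the DEK KO replicates, 35 bp between the WT control replicates, and 36 to 49 bp between genotypes. Over all regions the values between genotypes were 36 to 42 bp.

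Genes that work with these factors were counted in the same way. Windows of 21 other ETS family genes held 361 regions, of which 23 (6.37%) were DEK KO-only and 6 (1.66%) WT control-only, with a median difference of 0.351 points over the shared ones. Among them ELF3, an epithelial ETS factor, had 1 and 2, and SPDEF 2 and 1. ELF2, ELF5 and GABPA had 1 and 1 each, and ELK1, ELK3, ERF, ETV6, FEV and SPIB had 2 and none each. Windows of 12 RUNX partners and corepressors held 275 regions, 14 (5.09%) DEK KO-only and 3 (1.09%) WT control-only, with a median difference of 2.18. CBFB, the subunit that RUNX factors need for stable DNA binding, had 2 and none, as had TLE2 and TLE4, and the corepressor CBFA2T3 had 3 and none. Windows of 15 ERK feedback and immediate response genes held 296 regions, 18 (6.08%) and 6 (2.03%), with a median of 2.37. IER2, PHLDA1 and SPRY4, the last an inhibitor of ERK signalling, had 3 and none each. Over all regions the shares were 6.26% DEK KO-only and 2.57% WT control-only. At gene ends 11 of the 21, 8 of the 12 and 13 of the 15 genes had a region called in all 4 lists, against 60.0% of all genes.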

How the data were processed

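ATAC-seq in 786-O cells was represented by 1 peak list for each of 2 DEK KO and 2 WT control libraries, so peaks were called per library. The submitters' processing notes name the peak caller MACS2 2.2.7.1, the aligner Bowtie2 2.2.5, the trimmer cutadapt 1.18 and the build GRCh38, among other tools. Settings, and whether reads were shifted for the transposase, are not stated there. The deposited score column was not used beyond a check of its unit. The deposited fold is a ratio of pileup to background at the summit, p and q were deposited as −log10 values, and the summit is given by its offset from the peak's start. No list held a −log10 q below 1.30.

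Only chromosomes 1 to 22 and X were used, and peaks of the 4 lists that overlapped by at least 1 bp were merged. A region's percentile in a list is that of its peak with the highest −log10 p. Gene spans were read from RefSeq (GRCh38.p14), in which all 10 genes were found, but the table gives no strand, so ends are named by coordinate. The promoter table gives strand for 6 genes. Groups came from the labels, and replicate numbers were not used to pair libraries. The genes, lists and named regions were chosen with earlier results of these data known. Named regions were, for each gene, those at its starts or ends, the highest-ranked shared one and the highest-ranked one of each genotype, and over all genes the 5 largest differences in each direction among shared regions whose genotypes did not overlap. A gene's highest-ranked region is the one with the highest value of its lowest percentile, or, for a region of one genotype, of its lower percentile. Potassium channel neighbours, window-edge regions, the second strong regions of ETS1 and RUNX2, the overlapping RUNX3 region and the CpG counts were named after their values were seen. The cut of 5 RUNX matches was likewise not planned. Python 3.11.15, numpy 2.4.6, pandas 2.3.3 and matplotlib 3.10.9 were used, and the merging and ranking were tested on simulated data. Alternatives were a limit of −log10 q 5, lists of equal length, other windows, another overlap, another ranking and leaving out each library.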

Additional observations from a re-analysis of the deposited data

How the results depend on the processing

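No paired analysis was possible because the results come from no test. Counts of DEK KO-only and WT control-only regions were 16 and 6. They were 10 and 3 with 50 kb on each side and 7 and 0 in the gene spans alone, windows that hold fewer regions. Leaving out 1 library gave 28 to 40 and 10 to 20, because 1 list of a genotype then decides. Counts stayed within 1.5 times of 16 and 6 with −log10 q of at least 5 (17 and 5, or 8.67% and 2.55% against 6.54% and 3.47% of all regions), with lists of equal length (13 and 7, or 5.70% and 3.07% against 5.16% and 3.96%) and with an overlap of at least 50% of either peak (17 and 4, or 6.72% and 1.58% against 5.83% and 2.43%). The median percentile difference of 3.36 was 2.13 with −log10 q of at least 5, 0.310 with lists of equal length, 0.666 in the gene spans alone and 0.656 when ranked by fold, and 1.26 to 3.71 with 1 library left out. Over all regions it was 0.519, −1.06, 1.33 and 0.810 in the same settings, and the cause was not tested. By fold, in the gene spans alone and without DEK KO replicate 2 (1.26 against 1.71), the median at these genes was thus not above that of all regions. The covered ratio of 1.08 was 1.03 after the lists were made equally long, and between 1.05 and 1.12 when 1 library was dropped. The named differences kept their sign wherever they could be computed, with ETS1's between −37.3 and −2.69 and ERG's largest between 40.8 and 52.9. ETS1's could be computed in 6 settings and ERG's largest in 8. The overlap of at least 50% was applied to counts only, not to these differences. Without read counts, a missing peak cannot be told from one just under the calling limit.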

Other observations

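Among the listed starts, CpG density and openness did not go together at every gene. The outermost listed ERG start had 53 CpG in 300 bases and the RUNX3 inner start 38, and neither overlapped a peak in any library. The RUNX1 inner start had 40 CpG and the RUNX2 inner start 39, and both lay under a region called in all 4 lists. In WT control replicate 2 the region at the RUNX2 inner start had its peak beside the start, not over it. The RUNX2 outer start had 2 CpG and a GC content of 42.7%, and its region had a higher fold in all 4 libraries than that of the CpG-dense inner start. Over all promoter entries the median was 14 CpG and 58.7% GC. Of 7859 entries with at least 30 CpG, 69.7% overlapped a region called in all 4 lists and 24.7% overlapped no region. These counts were chosen after the starts had been seen, and DNA methylation was not measured here.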
